A study of Homo sapiens with 32 samples.

Results

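The genes described here are 9 that code for negative-feedback regulators of the MAP kinase cascades: the dual-specificity phosphatases DUSP1, DUSP2, DUSP4, DUSP5, DUSP6, DUSP8 and DUSP10 and the Sprouty proteins SPRY2 and SPRY4. They were taken by symbol from a count table of 32738 gene entries, and 6 of the 9 were among the 10439 genes with enough counts to be tested. The RNA came from HEK293, a widely used immortalised line derived from human embryonic kidney, exposed for 0, 5, 15 or 30 min to 4-thiouracil. This analogue of uracil carries sulphur in place of an oxygen and, once built into RNA, tags transcripts made while it was present. Each of the 4 times had 2 biological replicates, called cultures 1 and 2 here; 2 cDNA preparations per culture and 2 libraries per cDNA gave 32 libraries. All groups share the cell line, polyadenylated RNA and the protocol as far as the labels describe it. The treatment of the 0 min cells, any purification of tagged RNA and whether the cultures were grown separately are not stated in the labels, so p-values measure only the spread between these samples.

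MAP kinases such as ERK, JNK and p38 are switched on by phosphorylation of a threonine and a tyrosine in the activation loop, and the dual-specificity phosphatases of this family remove both phosphates. Sprouty proteins act higher up and dampen signalling from growth factor receptors through RAS to ERK. Many of these regulators have short-lived transcripts that are induced by the cascade they restrain, which makes them classic delayed or immediate-early feedback genes. DUSP1, DUSP2, DUSP4 and DUSP5 act mainly in the nucleus, DUSP6 in the cytoplasm on ERK, and DUSP8 and DUSP10 prefer JNK and p38.

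The 250 bases before the transcription start were read for 7 of the 9 genes from RefSeq promoters of build GRCh38.p14; DUSP4 and DUSP5 were not matched. The 4 shown are those of DUSP1 and SPRY2, the members with the highest levels per kilobase at 30 min, DUSP6, and DUSP8, which shares a full cyclic AMP response element (CRE) with DUSP1. Each is on the minus strand, written 5′ to 3′ and ending at the base before the start. Capitals mark the CRE (TGACGTCA), its half-site (TGACG, which also lies within every CRE), the TATA box (TATAAA) and the ETS core (CCGGAA), each searched on both strands; other motifs are in lower case. The windows are chr5:172771196-172771445 for DUSP1, chr13:80341127-80341376 for SPRY2 (the first of 3 annotated starts), chr12:89352502-89352751 for DUSP6 and chr11:1572272-1572521 for DUSP8.
DUSP1: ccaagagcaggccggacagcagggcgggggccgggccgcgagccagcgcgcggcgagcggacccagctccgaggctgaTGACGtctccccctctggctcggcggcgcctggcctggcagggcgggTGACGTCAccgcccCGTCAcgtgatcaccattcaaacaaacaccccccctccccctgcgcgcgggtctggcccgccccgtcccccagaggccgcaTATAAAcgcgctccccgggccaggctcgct
SPRY2: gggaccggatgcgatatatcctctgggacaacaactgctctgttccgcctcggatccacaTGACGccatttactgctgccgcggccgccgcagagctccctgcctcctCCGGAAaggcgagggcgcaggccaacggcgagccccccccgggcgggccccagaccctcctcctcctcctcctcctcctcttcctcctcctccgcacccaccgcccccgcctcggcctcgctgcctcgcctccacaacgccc
DUSP6: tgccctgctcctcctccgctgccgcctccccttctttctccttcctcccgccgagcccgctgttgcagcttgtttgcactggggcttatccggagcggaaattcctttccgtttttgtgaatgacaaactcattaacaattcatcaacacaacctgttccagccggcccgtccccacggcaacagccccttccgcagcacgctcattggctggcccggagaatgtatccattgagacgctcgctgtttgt
DUSP8: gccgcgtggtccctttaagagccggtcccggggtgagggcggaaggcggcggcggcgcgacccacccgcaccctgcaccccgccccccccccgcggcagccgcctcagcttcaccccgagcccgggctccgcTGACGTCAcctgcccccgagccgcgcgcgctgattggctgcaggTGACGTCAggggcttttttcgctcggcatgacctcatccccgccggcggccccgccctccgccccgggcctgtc

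A CRE was present in the windows of DUSP1, once, 125 to 118 bases before the start, and of DUSP8, at 2 places, and it occurs in 1.65% of the 35116 promoters of that length in the same table. The half-site occurs in 21.2% of them and was found in DUSP1, DUSP8, SPRY2 and SPRY4. DUSP1 alone of the 7 had a TATA box, which 10.7% of promoters have, 30 to 25 bases before the start. The ETS core, present in 14.5% of promoters, was found in SPRY2, and the E-box (CACGTG), present in 6.35%, in DUSP1 and DUSP2; in DUSP1 it overlaps a half-site. A GC box (GGGCGG) was found in 6 of the 7, all but DUSP6, against 42.6% of promoters. No window held the AP-1 site TGANTCA (6.57% of promoters) or the serum response CArG box (1.16%). A match describes letters in a window and is not evidence of binding.

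The 8 cultures held between 776871 and 1396056 counts after the 4 libraries of each were summed, and libraries made from the same cDNA differed by less than sampling noise. Against 0 min, RNA profiles shifted across much of the transcriptome: with edgeR's quasi-likelihood test and Benjamini-Hochberg adjustment, 2998 of the tested genes were higher and 2712 lower at 5 min. That split depended on the scaling, being 4452 higher and 1456 lower with total counts only; at 15 min it was 3110 and 2573 against 4880 and 1319, and at 30 min 3352 and 2485 against 5598 and 1343. The median of all genes against 0 min was 0.11, 0.19 and 0.35 on the log2 scale at 5, 15 and 30 min, and 0.83, 0.95 and 1.22 with total counts only. After 5 min the shift was small: from 5 to 30 min the median was -0.03, with 614 genes higher and 681 lower (759 and 320 with total counts only, 551 and 1122 with RLE size factors). From 5 to 15 min 108 were higher and 54 lower (130 and 36 with total counts only), and from 15 to 30 min 236 and 290 (314 and 203 with total counts only, 198 and 391 with RLE size factors). Of 11 HEK293 markers in the table, 10 had counts and 8 had them in every culture, STMN2 was at 0, and at 0, 5, 15 and 30 min their summed level spanned 1053 to 1213, 1467 to 1582, 2939 to 3030 and 2922 to 2924 TMM-scaled CPM. Most of that sum at the later times was SOX4, at 413 to 449, 713 to 886, 2340 to 2342 and 2260 to 2325 CPM. The other markers together held 640 to 764, 696 to 754, 599 to 689 and 599 to 662 CPM. Single markers within that sum were not all steady. Over the 8 cultures CDH2 ran from 87.2 to 389.7, VIM from 209.9 to 495.6 and IGF2BP1 from 58.1 to 90.9 CPM. Of 15 markers of other cell types, 10 were at 0, among them PTPRC, HBB and ALB, and their sum was at most 7.01 CPM in any culture. The part of the higher SOX4 level in the results below was not tested.

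The summed transcripts of the 9 genes stood higher at each later time. Levels are given as CPM, counts scaled to library size with edgeR's TMM factors. At 0, 5, 15 and 30 min the summed level of the 9 genes was 54.1 ± 12.2, 85.7 ± 10.4, 316 ± 68.5 and 936 ± 149 TMM-scaled CPM (SD, n = 2 cultures each). As CPM of the total counts, without TMM, it was 35.7 ± 6.29, 94.3 ± 11.4, 359 ± 93.1 and 1134 ± 169. The mean at 30 min was thus 17.3-fold that at 0 min with TMM and 31.8-fold without, and at 5 min 1.58-fold and 2.65-fold. For single tested members, total counts only gave folds against 0 min that were 1.63 to 1.65 times as large at 5 min, 1.68 to 1.71 times at 15 min and 1.79 to 1.82 times at 30 min. The cultures did not overlap between any 2 times. Most of the later sum was DUSP1, and in bulk RNA more cells with a transcript and more of it per cell cannot be told apart.

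**Figure D1:**
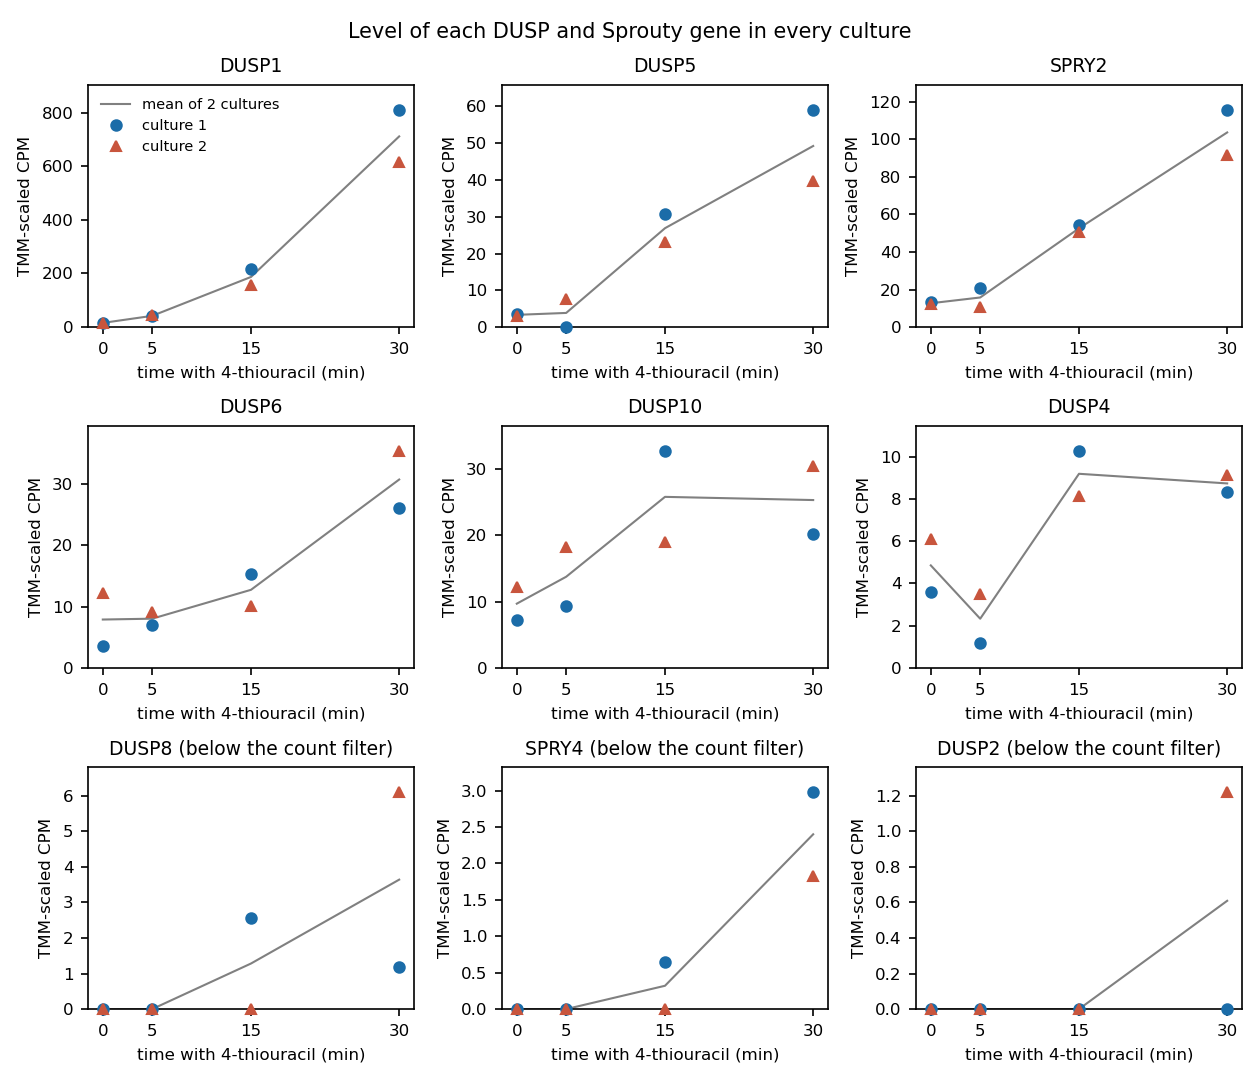
TMM-scaled CPM of each of the 9 genes (vertical axis, separate scale and starting at 0 in each panel) against minutes with 4-thiouracil. Circles and triangles are the 2 cultures of a time and the line joins their means; DUSP1 reaches 808 and 615 at 30 min, while DUSP2 is at 0 in 7 of the 8 cultures.

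DUSP1, a nuclear phosphatase for p38, JNK and ERK and a well-known immediate-early gene, was the largest single contributor to that sum at every time and was called higher in all 6 comparisons between times. Its TMM-scaled CPM were 14.4 and 16.8 in cultures 1 and 2 at 0 min, 39.7 and 44.1 at 5 min, 217.7 and 156.5 at 15 min, and 808 and 615 at 30 min. Both cultures of each time lay above both of the time before. The same was true of single libraries, which before scaling held 2 to 4, 6 to 22, 50 to 93 and 215 to 370 DUSP1 counts at 0, 5, 15 and 30 min. Against 0 min the log2 fold change was 1.44 (SE 0.36, adjusted p = 0.000995) at 5 min, 3.59 (SE 0.30, adjusted p = 1.28e-11) at 15 min and 5.52 (SE 0.28, adjusted p = 3.1e-16) at 30 min, by edgeR's quasi-likelihood test with Benjamini-Hochberg adjustment. The last is a 45.7-fold increase with a 95% interval of 30.9 to 67.6, and its p was the smallest of the 10439 genes tested. With total counts only it was 83.1-fold, outside that interval, and at 5 and 15 min 4.49-fold and 20.5-fold. These 3 comparisons share the 0 min cultures. The steps after 5 min were also called: DUSP1 was 4.42-fold higher at 15 than at 5 min (adjusted p = 6.26e-08, edgeR) and 3.80-fold higher at 30 than at 15 min (adjusted p = 3.43e-08, edgeR), again with the smallest p of all genes in the last step. From 5 to 30 min the increase was 16.8-fold (95% interval 12.3 to 23.04), the second smallest p of all genes. Each of the 14 other processing settings and left-out cultures kept all 6 DUSP1 calls, with adjusted p (edgeR or DESeq2) of at most 0.0234, reached at 5 against 0 min.

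DUSP5, a nuclear phosphatase that acts on ERK, was low at 0 and 5 min and called higher at 15 and 30 min against either. It had 3.59 and 3.06 TMM-scaled CPM in cultures 1 and 2 at 0 min, 0 and 7.70 at 5 min, 30.7 and 23.03 at 15 min, and 58.9 and 39.6 at 30 min. The early values rest on 3 and 2 counts at 0 min and on 0 and 11 counts at 5 min, and the 5 min cultures lay on both sides of the 0 min ones. Both 15 min cultures were above every earlier culture, and both 30 min cultures above both 15 min ones. Against 0 min DUSP5 was not called at 5 min (0.46, SE 0.90) but rose by 2.97 (SE 0.68, adjusted p = 0.000368) at 15 min and by 3.84 (SE 0.64, adjusted p = 4.18e-06) at 30 min on the log2 scale (edgeR). It was also called at 15 against 5 min (2.51, SE 0.57, adjusted p = 0.0149, edgeR) and at 30 against 5 min (3.38, SE 0.54, adjusted p = 4.46e-05, edgeR). The 15 against 5 min call was lost without culture 1 of 5 min, the one with 0 counts (adjusted p = 0.192), and without either 15 min culture (0.129 and 0.0547). Without culture 1 of 5 min the log2 changes against 5 min were 1.79 at 15 min and 2.66 at 30 min. Without culture 2 they were 8.07 and 8.94, fitted against a culture with 0 counts and so no bound. From 15 to 30 min the log2 difference of 0.87 (SE 0.41) did not pass (adjusted p = 0.273, edgeR). DUSP5 passed the filter on low counts only through its 15 and 30 min values.

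DUSP4, a nuclear phosphatase for ERK and JNK, stayed low. It had 3.59 and 6.12 TMM-scaled CPM at 0 min, 1.17 and 3.50 at 5 min, 10.2 and 8.13 at 15 min, and 8.33 and 9.13 at 30 min, from 1 to 16 counts per culture. Both 5 min cultures lay below both 0 min cultures, and the 15 and 30 min cultures, which overlapped each other, lay above all earlier ones. No comparison of DUSP4 passed the test; the log2 difference was 0.87 (SE 0.85, adjusted p = 0.398, edgeR) at 30 against 0 min and 1.74 (SE 0.86, adjusted p = 0.198, edgeR) at 30 against 5 min, with a 95% interval of -0.01 to 3.49. At 15 against 5 min it was 1.81 with a 95% interval of 0.059 to 3.56, at an unadjusted p of 0.0432 and an adjusted p of 0.357 (edgeR). DUSP4 too passed the filter only through the later times. DUSP2, the remaining nuclear phosphatase of the family described here, had 0 counts at 0, 5 and 15 min and 2 counts at 30 min, both in 1 library of culture 2, below the floor of 3 counts used for a fold.

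DUSP6, the cytoplasmic ERK phosphatase whose transcript is widely used as a readout of ERK activity, was called higher at 30 min, against both 0 and 5 min, and in no other comparison. It had 3.59 and 12.2 TMM-scaled CPM in cultures 1 and 2 at 0 min, 7.01 and 9.10 at 5 min, 15.4 and 10.2 at 15 min, and 26.2 and 35.3 at 30 min. The 0 min cultures spanned the 5 min ones and overlapped those of 15 min, and the 30 min cultures stood above all others. At 30 min DUSP6 was 4.04-fold higher than at 0 min (95% interval 1.80 to 9.10, adjusted p = 0.00334, edgeR) and 3.71-fold higher than at 5 min (95% interval 1.78 to 7.73, adjusted p = 0.0141, edgeR). It was not called at 5 min (0.13, SE 0.68) or 15 min (0.76, SE 0.63) against 0 min, nor in the steps from 5 to 15 min (0.63, SE 0.56) and from 15 to 30 min (1.26, SE 0.47, adjusted p = 0.135, edgeR). Leaving out culture 1 of 0 min, which held 3 DUSP6 counts, ended the 30 against 0 min call (adjusted p = 0.0775) and gave a log2 change of 1.32 in place of 2.02; without culture 2 of 0 min it was 3.07. In addition, leaving out any 1 of the 5 and 30 min cultures ended the 30 against 5 min call (0.0549 to 0.169). Its filter pass also rested on the later times.

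DUSP10, a phosphatase for JNK and p38, was called higher against 0 min at 15 and 30 min and in no other comparison. Its TMM-scaled CPM were 7.18 and 12.2 at 0 min, 9.35 and 18.2 at 5 min, 32.7 and 18.96 at 15 min, and 20.2 and 30.4 at 30 min in cultures 1 and 2. The 15 and 30 min cultures overlapped each other and lay above all of 0 and 5 min. Against 0 min the log2 difference was 1.44 (SE 0.54, adjusted p = 0.0235, edgeR) at 15 min and 1.41 (SE 0.54, adjusted p = 0.0255, edgeR) at 30 min; at 30 against 15 min it was -0.03 (SE 0.42, adjusted p = 0.985, edgeR). The 15 min call was lost without culture 1 of 0 or of 15 min (adjusted p = 0.167 and 0.244) and with DESeq2 (0.107). That at 30 min was lost without culture 1 of 0 min or culture 2 of 30 min (0.178 and 0.184), with DESeq2 (0.136) and with RLE size factors (0.0516). Against 5 min DUSP10 did not pass at 15 min (0.84, SE 0.46) or at 30 min (0.81, SE 0.46). DUSP8, another phosphatase that prefers JNK and p38 and the other member with a CRE in its printed window, had no counts at 0 and 5 min, 4 and 0 at 15 min, and 2 and 10 at 30 min in cultures 1 and 2. Over both cultures that is at least 1.79-fold higher at 30 than at 0 min and at least 2.75-fold higher than at 5 min, against a floor of 3 counts, and the 15 and 30 min cultures overlapped.

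SPRY2, which inhibits receptor tyrosine kinase signalling to ERK, rose after 5 min. It had 13.2 and 12.2 TMM-scaled CPM in cultures 1 and 2 at 0 min, 21.0 and 10.5 at 5 min, 54.4 and 50.8 at 15 min, and 115 and 91.9 at 30 min. The 0 and 5 min cultures overlapped, both 15 min cultures lay above them, and both 30 min cultures lay above those of 15 min. The log2 change against 0 min was 0.22 (SE 0.47, adjusted p = 0.719) at 5 min, 2.04 (SE 0.38, adjusted p = 2.92e-05) at 15 min and 3.01 (SE 0.36, adjusted p = 1.02e-08) at 30 min (edgeR), the last a fold of 8.08 with a 95% interval of 4.85 to 13.5. Against 5 min it was 3.53-fold higher at 15 min (adjusted p = 0.00172, edgeR) and 6.96-fold higher at 30 min (adjusted p = 1.1e-07, edgeR). The step from 15 to 30 min was 1.97-fold (95% interval 1.36 to 2.86, adjusted p = 0.0226, edgeR). That step was no longer called when any of its 4 cultures was left out (adjusted p 0.0934 to 0.418) or with DESeq2 (0.159), and the 15 against 5 min call ended without culture 2 of 5 min (0.128).

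SPRY4, another receptor-pathway inhibitor of the Sprouty family, had no counts at 0 and 5 min, 1 and 0 at 15 min, and 5 and 3 at 30 min. The 30 min cultures were thus above all others, at least 1.20-fold higher over both cultures than at 0 min and at least 1.83-fold higher than at 5 min, against the floor of 3 counts. The ratio of 30 to 15 min was 7.31 with an exact 95% counting interval of 0.98 to 325, which covers counting error only. When genes below the filter were kept, edgeR's test called none of DUSP2, DUSP8 and SPRY4 in any comparison, with adjusted p of at least 0.177.

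Counted by comparison, 1 member was called higher at 5 against 0 min (DUSP1), where 28.7% of all tested genes were; 4 at 15 against 0 min (DUSP1, DUSP5, DUSP10 and SPRY2; 29.8% of genes); and 5 at 30 against 0 min (all tested members but DUSP4; 32.1%). At 15 against 5 min 3 were higher (DUSP1, DUSP5 and SPRY2; 1.03% of genes), at 30 against 15 min 2 (DUSP1 and SPRY2; 2.26%), and at 30 against 5 min 4 (DUSP1, DUSP5, DUSP6 and SPRY2; 5.88%). At 30 against 15 min SPRY2 is the member whose call depends on each of the 4 cultures, so that 1 remains without any of them; at 30 against 0 min 3 remain without culture 1 of 0 min. No member was called lower in any of the 6 comparisons, at an adjusted or an unadjusted p under 0.05 in edgeR, or with DESeq2. Against 0 min DESeq2 gave an adjusted p for all 6 tested members. It gave one for only 1 at 15 against 5 min and for 2 at 30 against 15 and at 30 against 5 min, and could not call the rest. In the order of the comparisons above, 26%, 24.6%, 23.8%, 0.517%, 2.78% and 6.52% of tested genes were called lower. Since DUSP4, DUSP5 and DUSP6 were tested because of their later counts, these counts describe the members and give no support for a rise of the group. In 5 against 0 min the cultures of DUSP1 were all higher and those of DUSP4 all lower, patterns that 38.7% and 35% of tested genes showed. Cultures were all higher for 5 members at 15 against 0 min (42.1% of genes), 6 at 30 against 0 min (45.8%), 6 at 15 against 5 min (21.7%), 4 at 30 against 15 min (24.8%) and 6 at 30 against 5 min (26.5%).

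**Figure D2:**
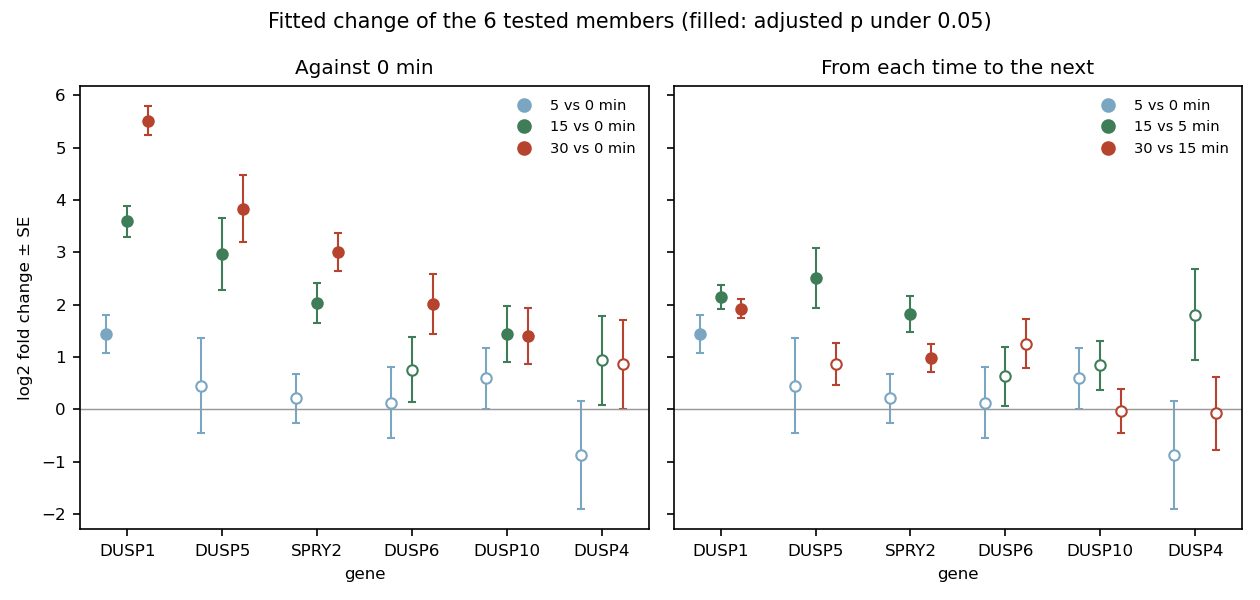
Fitted log2 fold change with its SE (vertical axis) of the 6 tested members, against 0 min on the left and from each time to the next on the right, colours giving the comparison. Filled points passed an adjusted p of 0.05; DUSP1 is filled throughout, with 5.52 at 30 against 0 min, and DUSP4 nowhere.

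Ordered by change at 30 against 0 min, DUSP1 led, followed by DUSP5, SPRY2, DUSP6, DUSP10 and DUSP4. DUSP1 exceeded DUSP5 by 1.68 on the log2 scale with a combined SE of 0.70, taking the genes as independent. Every other neighbouring pair in that order differed by less than 2 combined SE, for example 0.82 with an SE of 0.73 for DUSP5 and SPRY2. At 15 against 5 min DUSP5 (2.51) and DUSP1 (2.15) differed by 0.37 with a combined SE of 0.61.

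DUSP1 took a growing share of the counts of the 9 genes. At 0, 5, 15 and 30 min it held 29.2% ± 3.36, 49.1% ± 2.39, 59.1% ± 0.898 and 75.8% ± 2.52 of them (SD, n = 2). The share was 77.6% (95% Wilson interval 75.6 to 79.5) and 74.0% (71.7 to 76.3) in the 30 min cultures. In those of 0 min it was 31.6% (19.1 to 47.5) and 26.8% (15.7 to 41.9). The shares themselves did not overlap between any 2 times. The intervals of the 5 min cultures, 39 to 62 and 39 to 56, overlapped those of 0 min and of 15 min. The ratio of DUSP1 to SPRY2 counts within a culture, which no scaling can alter, was 1.09 and 1.38 at 0 min, 1.89 and 4.20 at 5 min, 4.00 and 3.08 at 15 min, and 7.01 and 6.69 at 30 min. Both 30 min ratios were above all others and both 0 min ratios below, while those of 5 and 15 min overlapped; with 2 cultures against 2 an exact permutation test cannot give a p below 0.333. The ratio of DUSP5 to SPRY2 counts did not separate 15 from 30 min (0.565 and 0.453 at 15 min, 0.510 and 0.430 at 30 min).

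**Figure D3:**
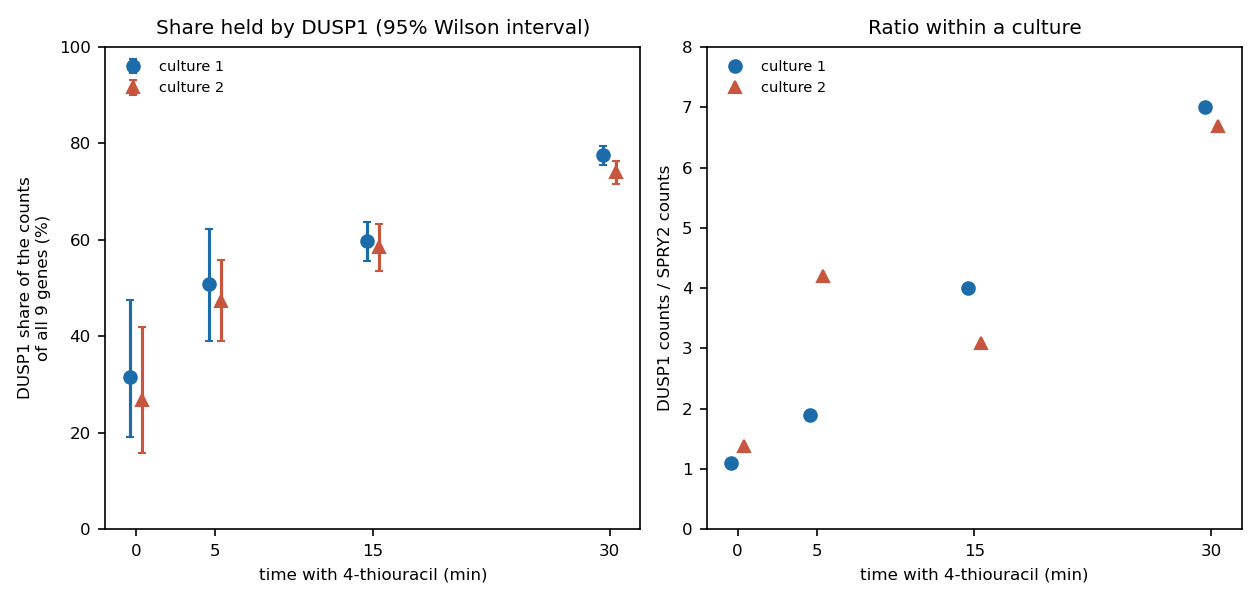
Left, DUSP1's share of the counts of the 9 genes in percent, with the 95% Wilson interval; right, DUSP1 counts divided by SPRY2 counts; both against minutes with 4-thiouracil, with the 2 cultures of a time drawn side by side. The share runs from 26.8% in a 0 min culture to 77.6% in a 30 min culture.

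Per kilobase of the longest annotated transcript (GENCODE release 29), the levels at 30 min ran in the order DUSP1 at 353 ± 67.7 TMM-scaled CPM per kb, SPRY2 at 38.3 ± 6.12, DUSP5 at 19.3 ± 5.34, DUSP10 at 9.47 ± 2.70, DUSP6 at 6.99 ± 1.47, DUSP4 at 1.58 ± 0.103, DUSP8 at 0.812 ± 0.773, SPRY4 at 0.486 ± 0.164 and DUSP2 at 0.361 ± 0.510 (SD, n = 2). DUSP10 and DUSP6 differed by less than the larger SD of the pair, as did DUSP4 and DUSP8, DUSP8 and SPRY4, and SPRY4 and DUSP2. At 0 min the per-kb level was 7.73 ± 0.863 for DUSP1, 4.69 ± 0.243 for SPRY2, 3.63 ± 1.34 for DUSP10, 1.80 ± 1.39 for DUSP6, 1.30 ± 0.147 for DUSP5 and 0.877 ± 0.323 for DUSP4. SPRY2 and DUSP10 at 0 min differed by less than the larger SD of the pair, as did DUSP6 and DUSP5. Whether counts grow with transcript length in this protocol was not tested.

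Across the 8 cultures the log2 levels of the tested members had a Pearson's r of 0.86 (DUSP4) to 0.95 (DUSP5) with their common mean profile. Each member is part of that mean, so these r are high in part by construction. DUSP4, DUSP5 and DUSP6 also passed the count filter only through later times. The values are a description over cultures that share the time course. Among pairs r ran from 0.66 (DUSP1 and DUSP4) to 0.96 (DUSP1 and SPRY2). Of 8624 other genes with a mean of at least 10 CPM, the 8 most alike to the members' mean profile were TXNIP and ATF3 (both r = 0.98), NUAK1 (0.98), ID2 (0.98), RP11-572O17.1 (0.97), CTGF (0.97), RPS6KL1 (0.96) and PNRC1 (0.96). ATF3, a stress-responsive transcription factor, averaged 9.71, 13.2, 74.6 and 234.5 TMM-scaled CPM at 0, 5, 15 and 30 min. CTGF, a secreted matricellular protein, averaged 1.53 ± 2.16, 3.50 ± 4.95, 26.5 ± 6.64 and 106 ± 30.6 TMM-scaled CPM at those times (SD, n = 2). Its SD exceeded its mean at 0 and 5 min, so the size of its change from those times is poorly fixed. TXNIP, an inhibitor of thioredoxin, averaged 46.4, 37.5, 178 and 248 TMM-scaled CPM. At 30 against 5 min the log2 increase was 4.04 for ATF3 (adjusted p = 3.37e-12), 4.60 for CTGF (1.56e-08), 2.67 for TXNIP (2.71e-10) and 1.62 for ID2 (6.96e-08) by edgeR.

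Of DUSP7, DUSP9, DUSP16, SPRY1, SPRY3, SPRED1, SPRED2 and SPRED3, 5 were tested, 4 of them were higher at 30 against 0 min and 1 was higher and 1 lower at 30 against 5 min. Among all tested genes 32.1% were higher and 23.8% lower at 30 against 0 min, and 5.88% and 6.52% at 30 against 5 min. The median log2 change of the 5 was 2.65 against 0 min and 0.37 against 5 min, beside 0.35 and -0.03 for all genes. DUSP16, a JNK and p38 phosphatase, averaged 11.2 ± 2.82, 153 ± 20.7, 152 ± 21.9 and 80.2 ± 20.4 TMM-scaled CPM at 0, 5, 15 and 30 min (SD, n = 2). It was 2.81 higher at 30 than at 0 min on the log2 scale (adjusted p = 2.07e-08, edgeR) and fell by 0.94 at 30 against 5 min (adjusted p = 0.0041, edgeR), a call lost without culture 2 of 5 or of 30 min (0.0865 and 0.143). SPRY1, another Sprouty inhibitor of receptor signalling, averaged 14.2 ± 1.51, 39.1 ± 9.02, 64.2 ± 15.6 and 93.3 ± 1.86 TMM-scaled CPM at 0, 5, 15 and 30 min, and was 1.22 higher at 30 than at 5 min (adjusted p = 0.00241, edgeR).

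Atypical dual-specificity phosphatases and relatives, which mostly act on other substrates, had 12 tested genes. Of these 3 were higher and 4 lower at 30 against 0 min, where 32.1% and 23.8% of all genes were, with a median of 0.17. With total counts only 6 were higher and 1 lower. At 30 against 5 min 2 were higher, where 5.88% of all genes were, and the median was -0.04. RNGTT, the mRNA capping enzyme, and the cofilin phosphatases SSH1 and SSH2 were higher at 30 against 0 min by 1.77, 2.75 and 1.73 (adjusted p = 8.89e-09, 1.43e-07 and 2.86e-08, edgeR). At 5 against 0 min these 3 were already higher by 2.13, 2.70 and 1.97 (adjusted p = 2.54e-10, 2.95e-07 and 2.65e-09, edgeR). DUSP11, an RNA phosphatase, was lower by 1.68 on the log2 scale at 30 against 0 min (adjusted p = 2.66e-07, edgeR). Its change at 5 against 0 min was -1.55 (adjusted p = 1.9e-06, edgeR). DUSP12 was higher at 30 than at 5 min by 1.21 (adjusted p = 0.00154, edgeR), a call lost when culture 1 of 30 min was left out. It had changed by -1.01 at 5 against 0 min (adjusted p = 0.00219, edgeR). At 30 against 0 min DUSP12 was not called (0.19, adjusted p = 0.527, edgeR).

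Genes of the kinase cascades that these regulators act on were counted beside all genes, of which 32.1% were higher and 23.8% lower at 30 against 0 min. Of 22 tested genes from receptors to ERK, 10 were higher and 3 lower at 30 against 0 min (median 0.81), and of 20 tested genes of the JNK and p38 cascades 11 were higher and 1 lower (median 1.07). With total counts only 14 were higher and 0 lower in each list, where 53.6% of all genes were higher and 12.9% lower. At 30 against 5 min, where 5.88% of all genes were higher and 6.52% lower, edgeR called 0 in either list. At an unadjusted p under 0.05 it gave 1 higher and 2 lower among the receptor-to-ERK genes and 0 among those of JNK and p38. DESeq2 called 1 lower and 0, but gave an adjusted p for only 14 of the 22 and 8 of the 20 genes. Over all 14 alternatives at most 1 higher and 2 lower were called in the first list and 0 in the second. The kinase BRAF was 2.61 higher (adjusted p = 4.83e-11, edgeR) and the adaptor FRS2 1.96 higher (adjusted p = 7.29e-08, edgeR) at 30 than at 0 min. At 5 against 0 min BRAF and FRS2 were already 3.10 and 2.49 higher (adjusted p = 2.24e-12 and 5.81e-10, edgeR). The JNK and p38 activators MAP3K7, MAP3K2 and TAOK1 were higher by 2.21, 2.49 and 1.42 (adjusted p = 5.42e-08, 4.01e-08 and 1.14e-05, edgeR) at 30 than at 0 min. At 5 against 0 min these activators were already higher by 2.57, 2.54 and 1.49 (adjusted p = 2.9e-09, 3.85e-08 and 6.67e-06, edgeR). HRAS (-2.04, adjusted p = 0.0413, edgeR) and the p38 substrate MAPKAPK3 (-1.22, adjusted p = 0.0324, edgeR) passed as lower at 30 against 0 min, but each call was lost in 8 of the 14 alternatives. These included DESeq2 (adjusted p = 0.0608 and 0.0665) and total counts only (0.225 and 0.53), and the HRAS value was -1.10 without culture 2 of 0 min.

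Of 7 tested genes known as other outputs of ERK signalling, 5 were higher at 30 against 0 min (median 2.61), where 32.1% of all genes were, and 5 at 30 against 5 min (median 3.07), where 5.88% were. FOS, an AP-1 subunit, averaged 15.7 ± 10.3, 1.75 ± 2.47, 163 ± 20.9 and 599 ± 83.7 TMM-scaled CPM at 0, 5, 15 and 30 min. Its log2 change at 30 against 5 min was 8.04 (SE 0.37, adjusted p = 2.58e-17, edgeR), set beside 4.07 (SE 0.22) for DUSP1; the difference between the genes was not tested. One of the 5 min cultures had 0 FOS counts, so the size of that change depends on the other. EGR1, a zinc-finger transcription factor and immediate-early gene, was chosen here after its values were seen. At 30 against 5 min EGR1 changed by 7.70 (SE 0.46, adjusted p = 1.34e-14, edgeR). Its 5 min cultures held only 1.17 and 1.40 TMM-scaled CPM, so the size of that change rests on few counts. Against 0 min the 30 min changes were smaller, at 5.32 for FOS and 4.16 for EGR1 (adjusted p = 3.67e-15 and 1.55e-12, edgeR). FOS had a change of -2.72 at 5 against 0 min (adjusted p = 0.00117, edgeR). In that comparison 3 of the 7 genes were called lower and 1 higher, where 26% and 28.7% of all genes were. EPHA4, an ephrin receptor, was 2.27 higher at 30 than at 0 min (adjusted p = 2.26e-10, edgeR). Its change was already 2.60 at 5 against 0 min (adjusted p = 2.06e-11, edgeR) and was -0.33 at 30 against 5 min. Of 12 tested feedback regulators of other kinds, 11 were higher at 30 against 0 min (median 1.75), where 32.1% of all genes were, and 3 at 30 against 5 min (median 0.18), where 5.88% were. Among them the pseudokinase TRIB1 averaged 15.3, 49.4, 155.5 and 248 TMM-scaled CPM at 0, 5, 15 and 30 min. TRIB1 rose by 2.33 from 5 to 30 min (adjusted p = 7.88e-10, edgeR). NF1, another of them, which switches RAS off, was 2.52 higher at 30 than at 0 min (adjusted p = 2.65e-12, edgeR). At 5 against 0 min NF1 was already 3.00 higher (adjusted p = 2.03e-13, edgeR).

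**Figure D4:**
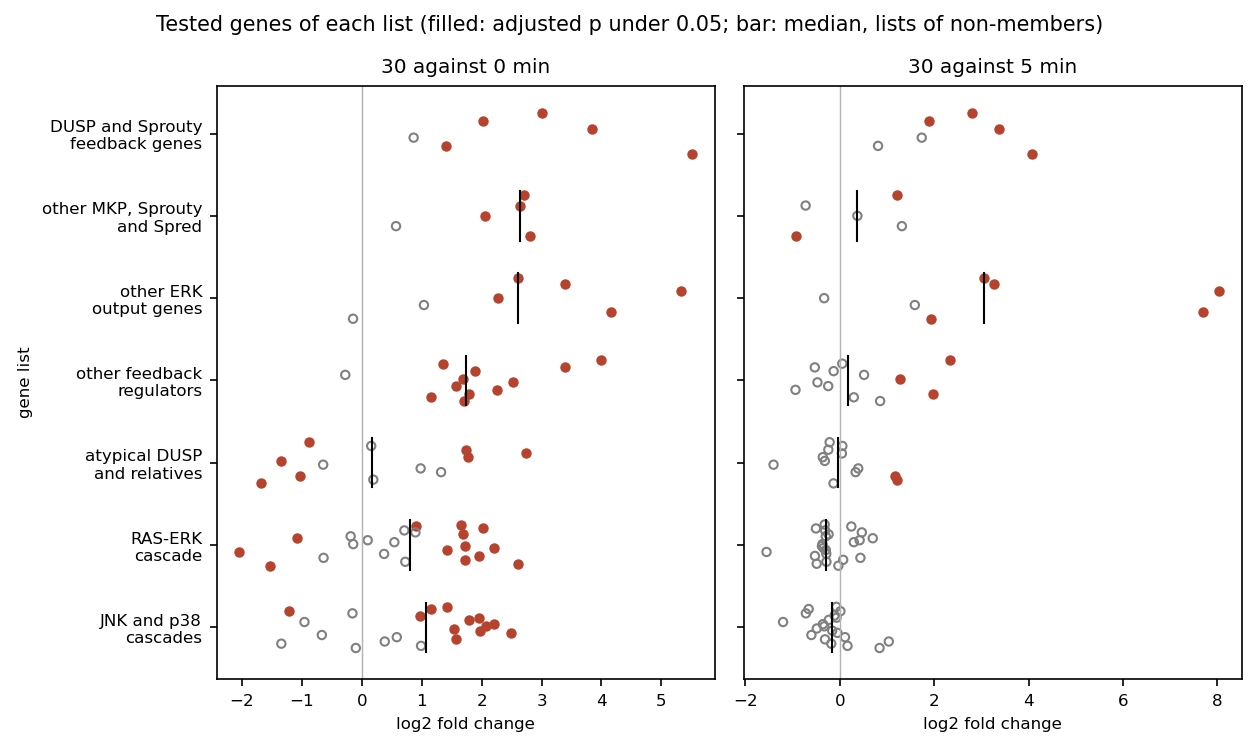
Log2 fold change (horizontal axis) of every tested gene of 7 gene lists (rows), at 30 against 0 min on the left and 30 against 5 min on the right; filled points passed an adjusted p of 0.05 and bars are medians of the lists other than the members. At 30 against 5 min the cascade lists hold no filled point and 4 of the 6 tested members are filled. Of all tested genes 5.88% were called higher and 6.52% lower there. Among these members DUSP5 and DUSP6 passed the count filter only through later times. The lists were chosen with earlier results known, so the rows are a description.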

How the data were processed

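The values are gene counts, whole numbers as deposited by the authors. Reads were aligned with STAR to hg19, per the submitters' processing notes; the version, the counting tool, the use of strand and the use of molecular identifiers are not given in the sources used here. For each culture the counts of its 4 libraries were added up (8 samples; 16 pairs of libraries from 1 cDNA gave a chi-square per degree of freedom of 0.327 to 0.594, and 32 pairs from different cDNA 1.14 to 2.29). edgeR 4.0.16 (R 4.3.3) was run on all 8 cultures in 1 quasi-likelihood fit with TMM scaling, filterByExpr, 4 residual degrees of freedom, two-sided F tests and Benjamini-Hochberg adjustment over 10439 genes at 0.05. DESeq2 1.42.0, RLE size factors, total counts only, no filter, a replicate block, 1 library per cDNA and leaving out each of the 8 cultures were alternatives. To the 4 residual degrees of freedom edgeR's fit added 29.9 prior ones, taken from the tested genes together. The p-values and fold change intervals of that fit thus rest mostly on spread shared across genes, and less on each gene's own cultures. Intervals cover counting error only where a Wilson or exact interval is named. Those intervals treat the summed counts as independent. Libraries from 1 cDNA differed by less than independent counts would (0.327 to 0.594), so the intervals are too narrow, to an extent that was not tested. Whether a molecule was counted more than once was not tested either. The script was tested on simulated counts. Members and gene lists were chosen with earlier results of these data known. Named genes outside the members are, per list, the 2 most abundant tested genes and the largest called rise and fall at 30 against 0 and 30 against 5 min with a mean of at least 5 CPM, plus the 8 most alike genes. Lengths are of GENCODE release 29. NEFL and PECAM1 were not used here.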

Additional observations from a re-analysis of the deposited data

How the results depend on the processing

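Over 14 alternatives, 455 of 491 member values kept their direction and their side of the threshold, 21 lost a call, 2 gained one and 13 changed sign; DESeq2 gave no adjusted p for 5 tested members at 15 against 5 min and for 4 at 30 against 15 and at 30 against 5 min, which are not counted. Leaving out 1 culture in turn gave 1 called member at 5 against 0 min, 3 to 4 at 15 against 0 min, 3 to 5 at 30 against 0 min, 2 to 3 at 15 against 5 min, 1 to 2 at 30 against 15 min and 3 to 4 at 30 against 5 min; a time left with 1 culture is assumed to vary like the others. With total counts only 2 members were called at 5 against 0 min (DUSP1 and DUSP10, at 1.32), and with DESeq2 1 (DUSP1) at 30 against 15 min; the cause was not tested. None of the 13 sign changes was of a called value. At 5 against 0 min the log2 change with 1 library per cDNA was -0.16 for DUSP5 and -0.68 for SPRY2, and over the left-out cultures it ran from -5.10 to 1.18 for DUSP5 (the lowest without culture 2 of 5 min, which leaves the culture with 0 counts), from -0.57 to 1.18 for DUSP6 (below 0 without culture 1 of 0 min or, at -0.097, culture 2 of 5 min), from -0.019 to 1.00 for DUSP10 and from -0.28 to 0.72 for SPRY2. At 30 against 15 min it was 0.023 for DUSP4 and 0.064 for DUSP10 with total counts only and 0.11 for DUSP4 with 1 library per cDNA, and over the left-out cultures it ran from -0.20 to 0.10 for DUSP4 and from -0.35 to 0.41 for DUSP10. For 26 named genes outside the members, 486 of 516 values kept their call and 30 lost it. Counts over all genes ranged, at 15 against 5 min, from 54 to 157 higher and from 0 to 113 lower, at 30 against 15 min from 56 to 316 and from 37 to 391, and at 30 against 5 min from 250 to 759 and from 148 to 1122. Same-numbered cultures of different times had deviations correlated at r of -0.03 to 0.08 over 6 pairs of times, so the numbers were not taken to pair samples; the replicate block left 1, 4, 5, 3, 2 and 4 members called in the 6 comparisons, as without it. Values of DUSP4 rest on 1 to 16 counts per culture and those of DUSP2 on 2 counts in all.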
